A study of Danio rerio with 32 samples.

Results

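The 4 histone deacetylase genes hdac1, hdac3, hdac8 and hdac9b were followed in cultured muscle cells of adult zebrafish over 14 days of differentiation. They were found by their symbol in the annotation of the Affymetrix Zebrafish Genome Array and were read by 5 of its 15502 analysed probe sets, 1 for each gene and 2 for hdac3. These 4 are among the 8793 genes with a symbol on the array. A probe set is a group of short probes to 1 transcript whose signals are combined into 1 value.

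Histone deacetylases take acetyl groups off lysines of histones and other proteins, and deacetylation of histone tails generally goes with less open chromatin. Hdac1, Hdac3 and Hdac8 are class I enzymes with a zinc ion in the active site. Hdac1 works in the Sin3, NuRD and CoREST complexes, Hdac3 in the NCoR and SMRT complex, and human HDAC8 removes the acetyl group from the cohesin subunit SMC3. Hdac9b belongs to class IIa, whose members have weak catalytic activity of their own. In mammalian muscle cells, class IIa proteins bind Mef2 transcription factors and hold their target genes down, until phosphorylation and binding to 14-3-3 proteins move them out of the nucleus.

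The cells were mononuclear cells from the dorsal muscle of α-actin–RFP transgenic adults, in which an α-actin promoter drives red fluorescent protein in skeletal muscle, with 15 to 20 fish pooled in each cell preparation. They were expanded in growth medium with bovine serum and FGF, and differentiated in medium with horse serum. RNA of day 0 and of 5 later days up to day 14 (days 1, 4, 7 and 10 between them) was hybridized to 32 arrays in batch 1 (1 hybridization run, 500000 cells plated) and batch 2 (4 runs). The labels grade 24 arrays as good and 8 as poor. Replicate B of day 0 in batch 1 was left out, since it correlated with no other array above 0.17, whereas each of the others reached 0.88 or more with at least 1 array. This left 31 arrays, 11 of batch 1 and 20 of batch 2, with 1 array of day 0 in batch 1. In batch 1, 1 analysed array is graded poor (14B), and in batch 2 the poor arrays are 4B, 4C, 4D, 7A, 7B and 14A. Arrays are named by day and replicate letter.

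Muscle genes were measured in these cultures: acta1a, the skeletal muscle actin, was higher on days 10–14 than on days 0–1, by 3.25 on the log2 scale (adjusted p = 1.01e-05 with limma), desma, encoding desmin, by 2.79 and myog, encoding myogenin, by 1.69. Of 24 listed muscle markers, 7 rose, 4 fell and 13 did not pass. Both shares are close to those over all 8793 genes with a symbol, of which 2187 were higher and 1512 lower. The other muscle markers that rose were actc1a (1.23), cav3 (1.18), myf5 (0.82) and myod1 (0.70). With the authors' MAS5 scaling alone, myf5 and myod1 did not pass (adjusted p = 0.18 and 0.32). The muscle markers that fell were pvalb1 (−2.69), mylz3 (−2.45), ckmb, a muscle creatine kinase (−2.21), and pvalb2 (−2.17). The cell mixture moved as well. Of 14 leukocyte markers, 12 fell and none rose; their summed signal was 12236–45890 on days 10–14 and 68545–126340 on days 0–1 in batch 1, and 7745–19457 against 75990–106790 in batch 2. Of 12 fibroblast and matrix markers, 7 rose and none fell. Array quality moved with the stage in batch 1, where scale factors were 3.17–4.11 on days 10–14 and 10.1–23.41 on days 0–1, and 3′ to 5′ ratios of GAPDH were 1.26–1.39 against 1.74–2.43. In batch 2 both measures overlapped between the stages. Scale factors there were 1.77–7 on days 10–14 and 2.36–8.24 on days 0–1. The GAPDH ratios were 2.52–12 and 3.34–9.72, all above the highest of batch 1 (2.43). The highest were those of 10C (12), 1B (9.72) and 10B (8.73), all graded good. The part of both measures in the results was not tested. In such mixed RNA, fewer cells of a type and less RNA per cell cannot be told apart.

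Both directions of change occurred among the 4 genes. In the fit over 31 arrays with hybridization run as a covariate, hdac8 was 2.07-fold higher and hdac9b 2.30-fold lower on days 10–14 than on days 0–1, while hdac1 and both hdac3 probe sets did not pass an adjusted p of 0.05. Over all probe sets, 21.6% were called higher and 16.9% lower in this comparison. Hence 1 of 5 member probe sets higher and 1 lower are shares close to those of the whole array. Signals below are normalized MAS5 intensities, which have no unit, and differences are on the scale of log2(signal + 32).

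**Figure D1:**
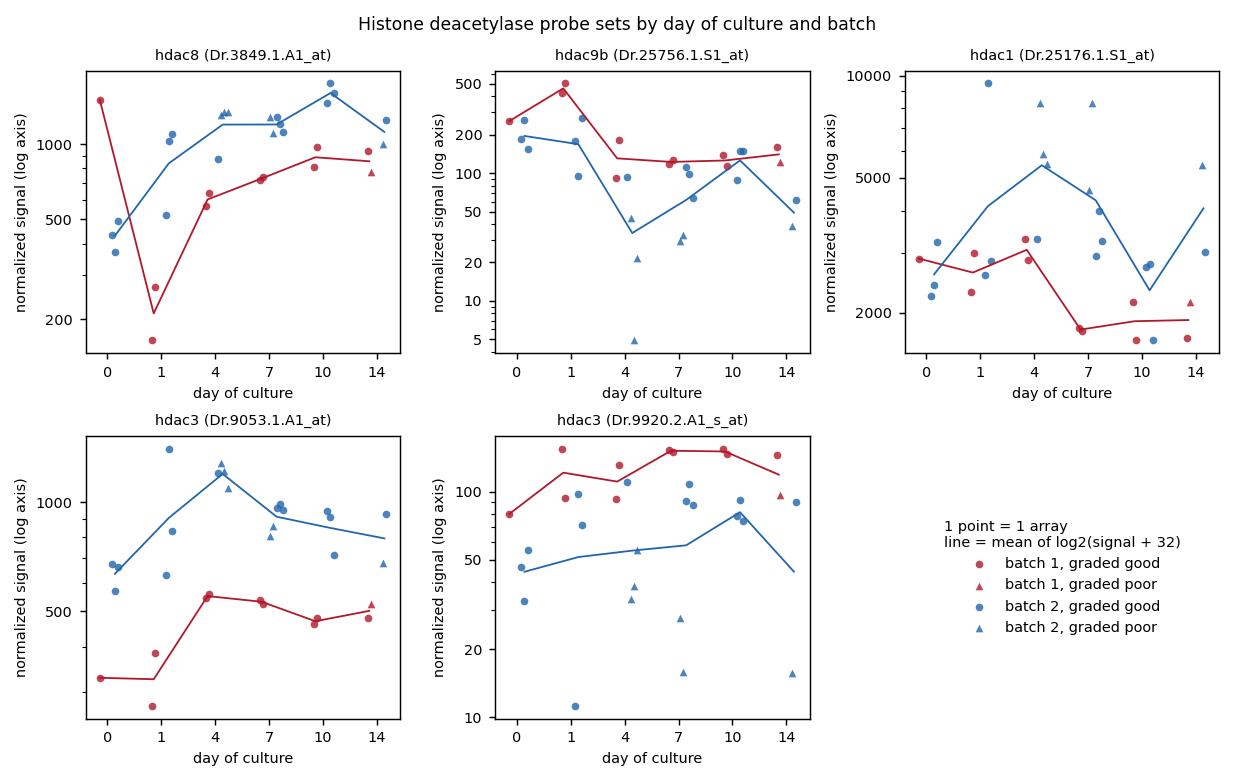
Normalized signal (vertical log axis) of the 5 histone deacetylase probe sets by day of culture (horizontal axis). Each point is 1 array, red for batch 1 and blue for batch 2, with triangles for arrays graded poor, and lines join the means of log2(signal + 32). In batch 2, hdac8 lies between 371.8 and 492.4 on day 0 and between 1463 and 1746 on day 10, whereas in batch 1 its single day 0 array stands at 1502, above every later one.

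The hdac8 probe set (Entrez gene 406740) was lowest on day 0 and highest on day 10 in batch 2, with day 7 inside the range of day 4. Its signals there were 371.8, 435.5 and 492.4 on day 0, 518.8, 1027 and 1095 on day 1, 868, 1310, 1338 and 1344 on day 4, and 1110, 1120, 1207, 1279 and 1284 on day 7. They were 1463, 1602 and 1746 on day 10 and 1002 and 1248 on day 14. The 3 arrays of day 10 were higher than all others of the batch, the 3 of day 0 were lower than all others, and both arrays of day 14 lay among those of days 1, 4 and 7. Day 14 minus day 10 was −0.71 within batch 2 (adjusted p = 0.19).

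In batch 1 the same probe set gave 1502 on the single day 0 array, then 164.5 and 268 on day 1, 566.3 and 638.1 on day 4, and 718.5 and 738.9 on day 7. It gave 806.8 and 972.6 on day 10 and 775.4 and 939.8 on day 14. From day 1 onwards the arrays of each day up to day 10 lay above those of the day before, and only the day 0 array broke this order. The A and B profiles of hdac8 over the 4 days with both good replicates in batch 1 correlated at 0.98. A correlation above 0.8 was reached by 34.5% of all probe sets.

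Over 31 arrays, hdac8 rose by 1.05 (SE 0.28, 95% interval 0.47 to 1.63, adjusted p = 0.0045). Within batch 1 the difference was 0.56 (SE 0.24, adjusted p = 0.12), with late arrays between 775.4 and 972.6 inside the early range of 164.5 to 1502. Within batch 2 it was 0.98 (SE 0.22, adjusted p = 0.0022), with 1002, a median of 1463 and 1746 on days 10–14 and 371.8, a median of 505.6 and 1095 on days 0–1, so that the groups overlapped in a narrow range. The shares of all probe sets called in these 2 fits were 29.7% and 28.7%. The change did not pass the test of a difference between batches (−0.42 in batch 1 minus batch 2, 95% interval −1.06 to 0.22, adjusted p = 0.39), a test that 11.6% of probe sets passed. In the runs that held both early and late arrays, hdac8 differed by 1.56 (run 1), 0.91 (run 3) and 1.01 (run 5, which is batch 1). The last value averages arrays, whereas the batch 1 fit averages days, so that the single day 0 array weighs more in the fit.

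The day 0 array of batch 1 decided how large this change was. Without it, the difference over the other 30 arrays was 1.49 (adjusted p = 2.14e-06). The first step of culture had opposite signs in the batches, but was called in batch 1 alone. Day 1 minus day 0 was −2.66 in batch 1 (adjusted p = 0.031) and 0.91 in batch 2 (adjusted p = 0.12). These steps differed by −3.57 (SE 0.43, adjusted p = 4.845e-05), a test chosen after the values were seen, which 10.3% of probe sets passed. Both p-values that involve day 0 of batch 1 rest on 1 array, which is assumed to vary like the arrays of the other groups, so its own spread is unknown. Day 1 minus day 0 was called for 1.36% of probe sets in batch 1 and for 0.716% in batch 2. That array has the highest scale factor of the analysed batch 1 arrays (23.41), so its raw brightness was low, and it is graded good; the part of either in its hdac8 value was not tested.

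The steps from day 1 on were less divided. Day 4 minus day 1 was 1.38 in batch 1 (adjusted p = 0.028, 12.2% of probe sets called) and 0.47 in batch 2 (adjusted p = 0.21, 6.79% called). Over 31 arrays it was 0.85 (adjusted p = 0.085), where 16.6% of probe sets were called. It passed without the day 0 array of batch 1 (0.82, adjusted p = 0.012) or without 1B (1.11) or 1C (1.06) of batch 2. With the 24 good arrays it was 0.68 (adjusted p = 0.38), and with the replicate letter as a block 0.82 (adjusted p = 0.17). Leaving out 1 array at a time gave adjusted p-values up to 0.27. Adjusted for run, the level of hdac8 relative to the mean of the 6 days was −0.69 on day 1, −0.53 on day 0, 0.16 on day 4, 0.19 on day 7, 0.26 on day 14 and 0.62 on day 10. No neighbors in this order differed beyond their spread (adjusted p = 0.98, 0.20, 0.98, 1.0 and 0.93). Of the 15 pairs of days, day 10 against day 0 (1.15, adjusted p = 0.029, 24.9% called) and day 10 against day 1 (1.31, adjusted p = 0.0073, 27.9% called) passed. Any difference among the 6 days was called for hdac8 over 31 arrays (adjusted p = 0.039, 34.9% of probe sets called), within batch 1 (adjusted p = 0.015, 18.1% called) and within batch 2 (adjusted p = 5.7e-04, 39.8% called). It was not called with the 24 good arrays alone (adjusted p = 0.15) or with the replicate letter as a block (adjusted p = 0.086), and the call was lost when any 1 of 11 of the 31 arrays was left out (adjusted p up to 0.097).

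The genes whose profiles were most like hdac8 were sirt6 (r = 0.89), tmem129 (r = 0.88) and rabif (r = 0.87), over 31 arrays centered within batch. These arrays share days and runs, and each r is given as a description. Sirt6 is a deacetylase that uses NAD, human TMEM129 is a ubiquitin ligase of the endoplasmic reticulum, and mammalian Rabif is a chaperone of Rab GTPases. The sirt6 probe set had the same break in batch 1, with 501.7 on the day 0 array and 104.6 and 97.3 on day 1. In batch 2 its signals were 90.0, 140.4 and 126.8 on day 0 and 215.8, 320.5 and 330.9 on day 10. Sirt6 was picked for likeness to hdac8 over arrays that include the day 0 array of batch 1. The shared break is therefore no independent evidence on that array.

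The hdac9b probe set (Entrez gene 393789) was high on days 0 and 1 and low from day 4 onwards in both batches. In batch 1 its signals were 256.2 on day 0, 422.8 and 504.6 on day 1, 91.0 and 183.2 on day 4, 118.1 and 127.1 on day 7, 113.1 and 139.6 on day 10, and 122.5 and 160.3 on day 14. Here every array of day 4 or later was dimmer than every array of days 0 and 1. In batch 2 its signals were 153.4, 184.7 and 262 on day 0, 94.5, 179.6 and 270 on day 1, 4.90, 21.6, 44.9 and 92.6 on day 4, and 29.7, 33.0, 63.6, 98.2 and 112.8 on day 7. They were 88.9, 148.4 and 148.8 on day 10 and 38.6 and 61.3 on day 14. All early arrays of this batch except 1B (94.5) were brighter than every later one, and 1B lay among the arrays of days 7 and 10.

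The fall of hdac9b on days 10–14 was −1.20 over 31 arrays (SE 0.25, 95% interval −1.71 to −0.69, adjusted p = 3.5e-04). It was −1.19 within batch 1 (SE 0.27, adjusted p = 0.012) and −1.23 within batch 2 (SE 0.33, adjusted p = 0.0095). Late and early signals did not overlap in batch 1 (113.1–160.3 on days 10–14 and 256.2–504.6 on days 0–1). They overlapped in batch 2 (38.6–148.8 against 94.5–270). The differences within runs were −0.82 (run 1), −0.84 (run 3) and −1.32 (run 5). The difference between batches was 0.04 for this change (95% interval −0.94 to 1.01, adjusted p = 0.97). The batch 2 fit adjusts for run and averages days. Plain means of log2 signals over the arrays of batch 2 were 6.92 on days 10–14 and 7.74 on days 0–1. In batch 1 they were 7.37 and 8.69.

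Most of this fall lay between day 1 and day 4. Day 4 minus day 1 was −1.58 over 31 arrays (SE 0.30, adjusted p = 9.6e-04), −1.60 within batch 1 (adjusted p = 0.024) and −1.54 within batch 2 (adjusted p = 0.018). With the 24 good arrays it was smaller and still passed (−1.10, adjusted p = 0.045). Of the day 4 arrays of batch 2, only 4A (92.6) is graded good. None of the other steps between neighboring days passed for hdac9b. Over all probe sets, 0% were called for day 1 minus day 0 (0 after adjustment in limma, 854 before it at p under 0.05), 1.88% for day 7 minus day 4, 0.00645% for day 10 minus day 7 (1 probe set) and 0% for day 14 minus day 10 (0, with 951 unadjusted). Adjusted for run, hdac9b stood at 0.97 on day 1, 0.86 on day 0, 0.02 on day 10, −0.60 on day 14, −0.61 on day 4 and −0.64 on day 7, relative to the mean of the days. Of the 15 pairs of days, 7 passed, each between day 0 or 1 and a later day. Pairs with day 0 were day 4 (−1.47, 19.4% of probe sets called), day 7 (−1.49, 27.4%) and day 14 (−1.45, 21.5%). Pairs with day 1 were day 4, day 7 (−1.60, 29.2%), day 10 (−0.94) and day 14 (−1.56, 24.6%). Any difference among the 6 days was called for hdac9b (adjusted p = 2.0e-04).

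Day 4 against all other days gave −0.73 for hdac9b (adjusted p = 0.074) and was called for 4.43% of probe sets. It was called for none of the 5 member probe sets; hdac1 was at 0.50 (adjusted p = 0.22), the main hdac3 probe set at 0.40 (adjusted p = 0.11), the other at 0.07 (adjusted p = 0.89) and hdac8 at 0.19 (adjusted p = 0.75).

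The signals of hdac9b were dim, and those of 4C (4.90, brighter than 1.5% of probe sets), 4D, 7A and 7B, all graded poor, were below 34. With the 24 good arrays alone, hdac9b still fell by 1.00 (adjusted p = 0.0056). The fall also went with the leukocyte markers. On day 4 the leukocyte sum was 42147–74196 in batch 1, overlapping both the early and the late range given above, and 35162–67237 in batch 2, between them. On day 7 of batch 2 the leukocyte sum was 7589–35305, with hdac9b at 29.7–112.8. On day 10 of batch 2 it was 10953–19457, with hdac9b at 88.9–148.8. Endothelial markers (4 of 6) and nerve and glia markers (4 of 10) were lower on days 10–14 too. The part of RNA from any of these cells in the hdac9b signal was not tested.

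**Figure D2:**
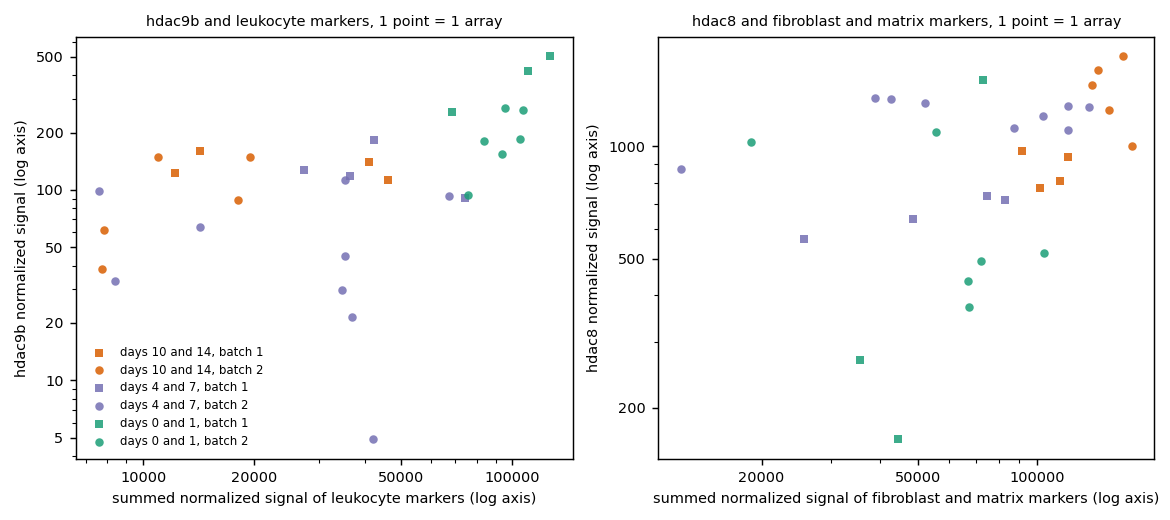
Left, normalized signal of hdac9b against the summed normalized signal of the leukocyte markers; right, hdac8 against that of the fibroblast and matrix markers, all on log axes. Each point is 1 array, colored by stage of culture, with squares for batch 1 and circles for batch 2. All arrays of days 0 and 1 have leukocyte sums of 68545 or more, and arrays of days 10 and 14 have 45890 or less.

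For hdac8 the matching values are those of the fibroblast and matrix markers, which rose. Their sum was 91804–119780 on days 10–14 and 35596–72818 on days 0–1 in batch 1, and 137880–174370 against 18757–104240 in batch 2. On day 4 of batch 2, with hdac8 at 868 to 1344, the sum was 12461–51912, overlapping the early range. The part of these cells in the hdac8 signal was not tested. Profiles most like hdac9b were those of ssh2a (r = 0.86), a phosphatase of the slingshot family that acts on cofilin, phc2a (r = 0.85), a Polycomb protein, and grb10a (r = 0.85), an adaptor of growth factor receptors. All 3 were lower on days 10–14, by −1.22, −1.03 and −1.69 in this order. They were chosen for likeness to hdac9b over the same arrays, so their direction adds no evidence of its own. Between themselves, hdac8 and hdac9b correlated at −0.54 over the 31 centered arrays.

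**Figure D3:**
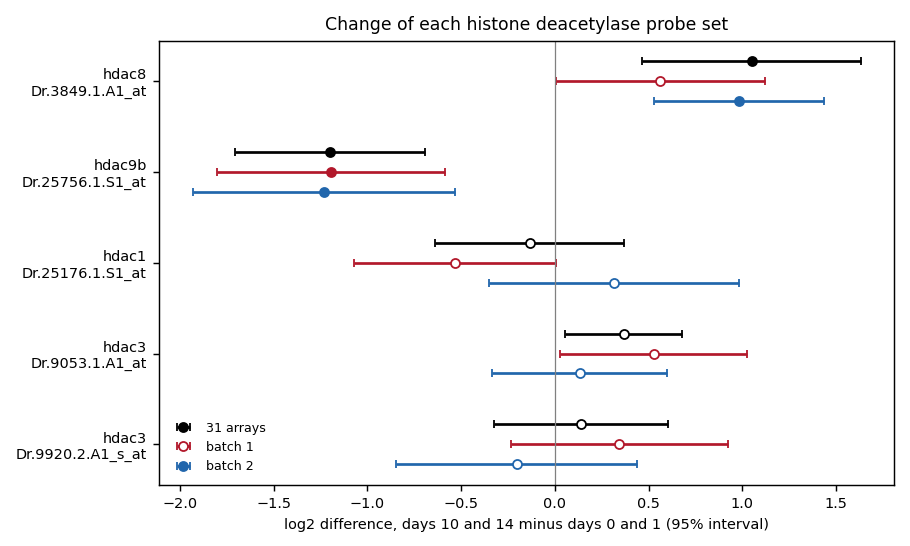
Difference between days 10–14 and days 0–1 on the log2 scale (horizontal axis, points, with 95% intervals) for the 5 probe sets over 31 arrays (black), batch 1 (red) and batch 2 (blue). Filled points passed an adjusted p of 0.05. The hdac9b values sit between −1.23 and −1.19 in all 3 fits, and the hdac1 values on both sides of 0.

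The hdac1 probe set (Entrez gene 192302) was bright on all arrays, brighter than 90.9% to 98.6% of probe sets. In batch 1 its signals were 2888 on day 0, 2305 and 2995 on day 1, 2855 and 3292 on day 4, 1769 and 1799 on day 7, 1658 and 2150 on day 10, and 1683 and 2153 on day 14. Here all arrays of day 7 or later were dimmer than all of days 0 to 4. In batch 2 its signals were 2238, 2417 and 3226 on day 0, 2584, 2851 and 9480 on day 1, 3292, 5472, 5874 and 8284 on day 4, and 2939, 3244, 3987, 4611 and 8284 on day 7. They were 1661, 2733 and 2781 on day 10 and 3024 and 5455 on day 14. Apart from array 1B (9480), the 6 brightest of these normalized signals were those of the 6 arrays graded poor, and the late range (1661–5455) overlapped the early one (2238–9480). In the signals as the authors scaled them, good array 7D (4180) was brighter than poor arrays 4D (3596) and 7A (3290). Quantile normalization took 7B from 4296 to 8284.

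Over 31 arrays, hdac1 on days 10–14 differed from days 0–1 by −0.13 (SE 0.25, 95% interval −0.64 to 0.37, adjusted p = 0.70). The difference was −0.53 within batch 1 (adjusted p = 0.12) and 0.32 within batch 2 (adjusted p = 0.49). The sign in batch 2 came with the run covariate: the plain mean of log2 signals there was 11.52 on days 10–14 and 11.69 on days 0–1, and the differences within runs were 0.18 (run 1) and −0.05 (run 3). The difference of −0.85 between the batches did not pass (adjusted p = 0.21). The 24 good arrays gave −0.45 (adjusted p = 0.17). Any difference among the 6 days did not pass for hdac1 over 31 arrays (adjusted p = 0.16) and passed within batch 2 (adjusted p = 0.041), where day 10 minus day 7 was −1.32 (adjusted p = 0.028, 17.9% of probe sets called). The brightest day 7 array of that step is graded poor. In batch 2 the only day 7 arrays that share a run with day 10 arrays are 7A and 7B, both graded poor. Over 31 arrays, day 10 minus day 7 was −0.61 (adjusted p = 0.40), and under the authors' scaling alone it was −0.26 (adjusted p = 0.59). With the 24 good arrays of both batches, day 10 minus day 7 was 0.15 (adjusted p = 0.98).

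Proliferation markers gave the following counts in the same comparison, in which hdac1 was called in neither batch. In batch 1, 16 of the 22 fell and none rose, and their sum was 2910–8113 on days 10–14 and 11339–41210 on days 0–1. In batch 2, 2 rose and none fell, with sums of 8608–14926 on days 10–14 and 6397–15645 on days 0–1. Of all 8793 genes, 1626 were called higher and 1239 lower in batch 1, and 1482 and 1251 in batch 2. The part of dividing cells in the hdac1 signal was not tested. Profiles most like hdac1 were those of eif4e1c (r = 0.83), a member of the cap-binding translation factors, and of the splicing proteins sf3b3 (r = 0.82) and snrpc (r = 0.81). None of these 3 passed in days 10–14 against days 0–1. They were chosen for likeness to hdac1 over the same arrays, so this adds no evidence of its own.

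The main hdac3 probe set (Entrez gene 393965) was lowest on day 0 and highest on day 4 in its means adjusted for run, though not on every array. In batch 1 its signals were 328.5 on day 0, 275.2 and 383.9 on day 1, 543 and 559.7 on day 4, 525.7 and 537.9 on day 7, 461.5 and 478.7 on day 10, and 480.5 and 524.3 on day 14. Every array of day 4 or later was brighter than the 3 early ones. In batch 2 it gave 570.3, 662.8 and 676.4 on day 0, 631, 832.1 and 1402 on day 1, 1091, 1200, 1221 and 1278 on day 4, 805, 860.1, 952.5, 963.4 and 989.5 on day 7, 713, 908.4 and 943.4 on day 10, and 679.3 and 928.5 on day 14. The arrays of day 4 were above all others of the batch except 1B (1402), and later arrays overlapped those of day 1.

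On days 10–14, hdac3 by this probe set was 0.37 above days 0–1 (SE 0.15, 95% interval 0.06 to 0.68), which missed the threshold (adjusted p = 0.056). The difference was 0.53 within batch 1 (adjusted p = 0.10) and 0.13 within batch 2 (adjusted p = 0.69). Without array 1B of batch 2 it passed, at 0.40 (adjusted p = 0.018). Removing any 1 of 4 other arrays of batch 2 (0C, 1C, 10C or 14A) also brought it under the threshold. The F-test over days was called for this probe set (adjusted p = 0.029) but not with the 24 good arrays (adjusted p = 0.075), and not without 0B (adjusted p = 0.13) or 4A (adjusted p = 0.066) of batch 2. Of the 15 pairs of days, day 4 against day 0 (0.79, adjusted p = 0.0044) and day 7 against day 0 (0.61, adjusted p = 0.035) passed. Its A and B profiles in batch 1 correlated at 0.98. Most like it were psmd8 (r = 0.88), a subunit of the proteasome, nom1 (r = 0.88), a nucleolar protein, and lsg1 (r = 0.87), a GTPase of ribosome assembly.

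The other hdac3 probe set, whose name ends in _s_at, a suffix for probes that can match more than 1 transcript, was dim and did not follow the main one. Its signals were 79.9–155.4 in batch 1 and 11.3–110.1 in batch 2, where the lowest were 1A (11.3, graded good), 14A (15.7) and 7B (15.8), both graded poor. It differed by 0.14 between days 10–14 and days 0–1 (SE 0.23, adjusted p = 0.66), and by −0.18 under the authors' scaling alone (adjusted p = 0.55). The A and B profiles correlated at −0.02, and the correlation with the main hdac3 probe set was 0.40. Within batch 2 its day 10 minus day 7 was 1.16 (adjusted p = 0.042), where the 2 lowest day 7 arrays (15.8 and 27.6) are graded poor. With the 24 good arrays of both batches, this step was −0.08 (adjusted p = 0.99). Most like it were si:ch73-109d9.2 (r = 0.73), map3k7 (r = 0.72), a kinase of the TGF-β pathway, and gatb (r = 0.72), a mitochondrial amidotransferase subunit.

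Of the other zinc-dependent deacetylases listed, 4 of 10 were measured, and 1 rose on days 10–14. This was hdac6, known in mammals as a deacetylase of tubulin in the cytoplasm. Its signals were 168.3 to 305.5 in batch 1 and 243.3 to 433.5 in batch 2 on days 10–14, against 49.3 to 108.1 and 134 to 254.7 on days 0–1. The ranges did not overlap in batch 1 and overlapped at 1 early array in batch 2. Its difference was 1.09 (SE 0.18, adjusted p = 3.7e-05), with 1.24 in batch 1 and 0.86 in batch 2. The others did not pass: hdac10, a polyamine deacetylase in mammals, at 0.65 (adjusted p = 0.12; 1.29 in batch 1, adjusted p = 0.038, and −0.11 in batch 2, adjusted p = 0.83), hdac11 at −0.33 (adjusted p = 0.21) and hdac4, of the same class as hdac9b, at −0.07 (adjusted p = 0.82). With the authors' scaling alone, hdac11 passed at −0.72 (adjusted p = 0.015), and with the 24 good arrays hdac10 passed at 1.02 (adjusted p = 0.017).

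Among the sirtuins, deacetylases that use NAD in place of zinc, 3 of 8 listed genes were measured and 2 rose. Sirt2, found mainly in the cytoplasm, rose by 1.40 (SE 0.23, adjusted p = 3.0e-05). Its signals on days 10–14 were 695.7 to 1435 in batch 1 and 925.2 to 1932 in batch 2, against 204.1 to 486.8 and 461.7 to 652.9 on days 0–1, with no overlap in either batch. Sirt6 rose by 0.73 (SE 0.22, adjusted p = 0.0091), with 0.38 in batch 1 (adjusted p = 0.23) and 0.80 in batch 2 (adjusted p = 0.0090). Sirt3, of the mitochondria, stood at 0.46 (adjusted p = 0.14) and passed within batch 1 (0.84, adjusted p = 0.029) but not within batch 2 (0.27, adjusted p = 0.62). For reference, 2187 of all 8793 genes were called higher and 1512 lower, with a median difference of 0.11.

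**Figure D4:**
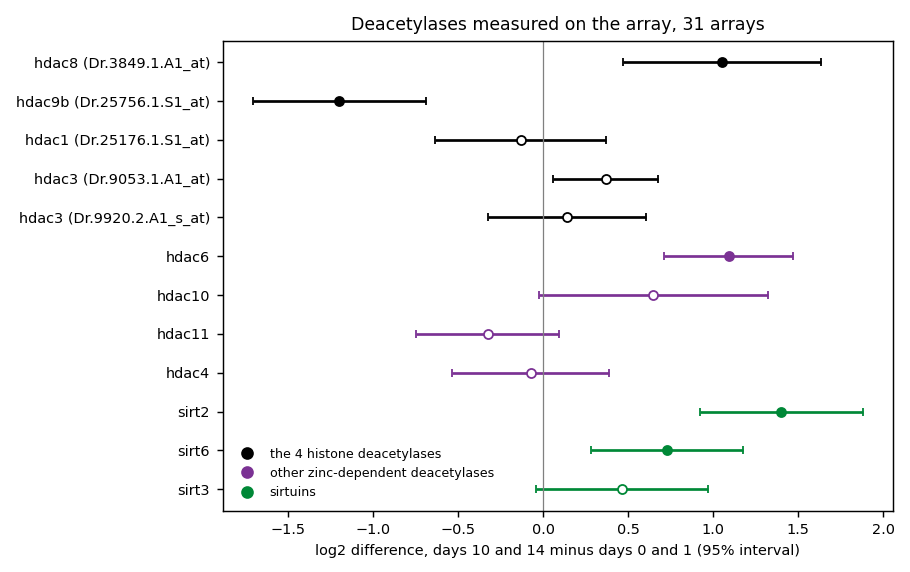
Difference between days 10–14 and days 0–1 on the log2 scale (horizontal axis, points, with 95% intervals) over 31 arrays for the 4 histone deacetylases (black), the other zinc-dependent deacetylases (purple) and the sirtuins (green). Filled points passed an adjusted p of 0.05. The genes higher on days 10–14 are hdac8, hdac6, sirt2 and sirt6, and hdac9b alone passed in the other direction.

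Partners of hdac1 in the Sin3, NuRD and CoREST complexes included genes called in each direction. Of 26 measured, 4 rose, 5 fell and 17 did not pass, with a median of −0.10, which sets them near or below the shares over all genes (2187 higher and 1512 lower of 8793). The CoREST scaffold rcor1 rose by 1.16 (adjusted p = 2.2e-06) and mbd2, the methyl-DNA binding protein of NuRD, fell by 1.41 (adjusted p = 5.0e-06). Of the Sin3 complex, arid4a fell by 0.71 (adjusted p = 6.7e-04), and sin3b stood 0.76 higher (adjusted p = 0.0031) but did not pass under the authors' scaling alone (0.44, adjusted p = 0.19). The sin3b signals were dim, between 2.81 and 95.15. Sin3b passed neither within batch 1 (0.98, adjusted p = 0.0502) nor within batch 2 (0.61, adjusted p = 0.068). In the NCoR and SMRT complex of hdac3, 1 of 5 measured genes rose. This was gps2, a core subunit, at 0.52 (adjusted p = 0.026), also lost under the authors' scaling (adjusted p = 0.26). The histone demethylase kdm4ab stood at 0.37, cops2 at 0.27 and coro2aa at 0.19, none of them past the threshold. Ncor1 did not pass either (0.22, adjusted p = 0.675). Its sign differed between the batches, with −0.78 in batch 1 (adjusted p = 0.19) and 1.22 in batch 2 (adjusted p = 0.027).

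Of 11 measured genes of cohesin and its regulators, 4 fell, none rose and 7 did not pass, with a median of −0.43. In the same comparison 1512 of all 8793 genes were lower and 2187 higher. The ring subunit smc3, which HDAC8 deacetylates in human cells, fell by 0.92 (adjusted p = 0.0079). The acetyltransferase esco2, which acetylates Smc3, fell by 1.37 (adjusted p = 0.043), stag2b by 0.65 (adjusted p = 0.0027) and rad21l1, of the kleisin subunits, by 1.87 (adjusted p = 0.0099), though rad21l1 did not pass with the 24 good arrays (−1.93, adjusted p = 0.053). Esco2 differed by −3.03 in batch 1 and −0.29 in batch 2, and smc3 by −1.48 and −0.63. Stag2b, at −0.63 in batch 1 and −0.62 in batch 2, passed in neither. Within batch 2 the fall did not pass for esco2 (adjusted p = 0.65), smc3 (adjusted p = 0.052) or stag2b (adjusted p = 0.073). Within batch 1, 5 of the 11 were lower and none higher, and within batch 2, 1 was lower and 1 higher, against 1239 lower of all 8793 genes in batch 1 and 1251 lower and 1482 higher in batch 2. The batch 2 counts are no more than these shares. Beside them stand the proliferation markers, 16 of which fell in batch 1 and none in batch 2. Their part was not tested.

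Of 14 measured Mef2 factors and class IIa partners, 5 rose, none fell and 9 did not pass, with a median of 0.19. Over all 8793 genes, 2187 were called higher and 1512 lower. Mef2d, a Mef2 transcription factor, was 1.24 higher (adjusted p = 0.0025), by 1.26 in batch 1 and 1.43 in batch 2, but did not pass under the authors' scaling alone (0.86, adjusted p = 0.078). The Mef2 genes mef2ca (−0.29, adjusted p = 0.45) and mef2aa (0.04, adjusted p = 0.91) did not pass. Of the 14-3-3 genes, ywhag2 rose by 1.84 (adjusted p = 1.0e-06), ywhaqa by 0.64 (adjusted p = 0.0016) and ywhah by 0.96 (adjusted p = 0.010). Ywhah did not pass with the 24 good arrays (0.41, adjusted p = 0.32), and with those 3 genes of the list rose and 1 fell. The gene that fell there was ywhag1 (−1.02, adjusted p = 0.032), which did not pass in the main fit (−0.67, adjusted p = 0.11).

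Of 14 histone acetyltransferases and their subunits, which place the marks that deacetylases remove, 1 rose and 2 fell. These counts are below the shares over all 8793 genes, of which 2187 were called higher and 1512 lower. The enzymes kat8 and kat5a fell by 1.13 (adjusted p = 4.2e-05) and 1.04 (adjusted p = 6.0e-04). Taf1 was 0.78 higher (adjusted p = 0.019) but not past the threshold under the authors' scaling (adjusted p = 0.36) or with the 24 good arrays (adjusted p = 0.054), and naa60 stood at 0.46 (adjusted p = 0.055). Of 13 bromodomain genes, whose proteins bind acetylated lysines, 6 fell and 1 rose, with a median of −0.29, beside the same counts over all genes. The BET family member brd2a fell by 1.64 (adjusted p = 2.8e-07) and brdt, a BET gene of the germ line in mammals, fell by 1.73 (adjusted p = 2.9e-06). Baz1a, a chromatin remodeling subunit, fell by 1.00 and brd1b, of acetyltransferase complexes, by 0.80 (adjusted p = 0.0015).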

How the data were processed

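Per the labels, the authors computed 1 linear intensity for each probe set with MAS5 and scaled every array. The MAS5 version was not stated in the sources used. Labelled target intensities are 500 and 1500, but the mean of the deposited intensities after trimming 2% of each tail was 500 on every array. Leaving out 115 controls, 15502 probe sets were quantile normalized to the 10 good arrays of batch 1, 32 was added and log2 taken. This lowers fold changes of dim probe sets. Of the probe sets, 10795 have 1 symbol in the annotation of the array, 135 several and 4572 none; Entrez IDs matched 10711 of the 10795 to current symbols, and the other 84 stayed as annotated. A gene with several probe sets in a list is represented by that with the highest A–B correlation.

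Tests used limma 3.58.1 in R 4.3.3 (lmFit, eBayes, two-sided) on day and hybridization run, with 21 residual degrees of freedom over 31 arrays, 5 in batch 1 and 11 in batch 2. The threshold for a call was an adjusted p of 0.05 (Benjamini-Hochberg over all 15502). The fit was tested on simulated data. The number of arrays limits the precision, and where replicates did not come from separate preparations, p-values reflect the spread between these arrays alone, which may be technical. The members and lists were chosen with earlier results of these data known. Named were all member probe sets, the 3 genes most alike to each, all other deacetylases, and up to 4 genes with the smallest p of each partner list. The genes ncor1, ywhag1, mef2ca and mef2aa were named besides. The tests of single steps between batches, of all 15 day pairs and of the lists under other settings were added after seeing the data. Alternatives covered normalization, offset, filter, covariates, arrays and moderation.

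Marker lists not described above gave these counts on days 10–14 against days 0–1: 3 of 8 erythrocyte, 4 of 6 endothelial and 4 of 10 nerve and glia markers fell, with none higher, and of 16 epithelial markers 5 fell and 1 rose. Over all 22 proliferation markers, 5 fell and none rose. Beside these counts, 1512 of all 8793 genes were lower and 2187 higher. Summed signals are sums over a list's probe sets.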

Additional observations from a re-analysis of the deposited data

Results flagged for a closer look

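On day 4 of batch 2, the hdac8 signal of replicate A (log2 9.81, signal 868) stood apart from the other 3 arrays, which lay between 1310 and 1344. Dixon's test was applied to 10 groups of 4 or 5 arrays and marked this 1, and chance marks about 1 in 20 groups. Replicate A is the only one of these 4 arrays graded good.

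The change of hdac8 between day 1 and day 0 differed between the batches by −3.57 on the log2 scale (batch 1 minus batch 2, adjusted p = 4.845e-05 with limma). It rests on the single day 0 array of batch 1, whose spread is taken from the other groups, and the test was chosen after that value was seen.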

How the results depend on the processing

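Of 1870 values recomputed under 46 alternatives, 1815 stayed on their side of the threshold with the direction of any call, and none that passed in either setting changed sign. Where both settings missed the threshold (1433 values), 92 had the other sign. The fall of hdac9b on days 10–14 passed in all alternatives that could test it. The rise of hdac8 did not pass in batch 1 alone (0.56) or in its 10 good arrays (0.63). For the main hdac3 probe set, the difference of days 10–14 passed with the quantile target of all 31 arrays (0.38), an offset 4 times as large (0.31), only probe sets above the median signal (0.37) and all 32 arrays (0.63), and day 4 against other days passed with batch as covariate (0.48). For hdac9b, day 4 against other days passed with batch as covariate (−0.90) and with run as a random block (−0.84).

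The F-test over days gave these adjusted p-values where its call changed. For hdac1 it was 0.041 in batch 2 alone. For hdac3 it was 0.48 without a covariate, 0.12 with run as a random block, 0.075 with good arrays, 0.27 and 0.12 in batches 1 and 2 alone, and 0.34 in the 10 good arrays of batch 1. For hdac8 it was 0.057 with an offset of 1, 0.070 without a covariate and 0.15 with good arrays. For hdac9b it was 0.055 in the 10 good arrays of batch 1. The causes were not tested.

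Correlations of deviations did not settle whether equal replicate letters pair the arrays. They lay between −0.33 and 0.07 in batch 1 and between −0.68 and 0.61 in batch 2, where 11 of 41 pairs exceeded 0.1. Deviations of 2 replicates mirror each other, so letters A and B gave the same values in batch 1. With a replicate block, the F-tests of hdac3 (0.082) and hdac8 (0.086) no longer passed, hdac8 rose by 1.14 and hdac9b fell by 1.20, and 5425 probe sets were called, against 5973 without it.

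Leaving out 1 array at a time gave differences on days 10–14 of 0.28 to 0.42 for hdac3, 0.87 to 1.49 for hdac8 and −1.32 to −1.10 for hdac9b. Day 4 against other days ranged from 0.32 to 0.50 for hdac3 and from −0.89 to −0.56 for hdac9b. The F-test's adjusted p ranged from 0.0041 to 0.13 for hdac3 and from 4.36e-05 to 0.097 for hdac8, which lost its call for 11 of 31 arrays. The probe sets called numbered 5418 to 6131. With the authors' scaling alone, the median of all probe sets was −0.11 in place of 0.07, and 47% in place of 56.1% of calls were higher.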
